A study of Mus musculus with 12 samples.

Results

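The genes described here encode parts of antibodies and of the B cell antigen receptor: Igha, Ighm, Igkc, Jchain, Cd79a, Cd79b and Ms4a1. They were picked by symbol from the deposited count table, 7 of its 56748 genes, because Igha and Igkc had been seen to differ in these data. Igha and Igkc are therefore described without a test, and the other 5 genes come from the same samples and give no independent support for the pattern of the first pair.

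RNA came from whole kidney of mice labelled C57bl/6-wt, and every animal had cisplatin, a platinum drug toxic to kidney tubules. The AKI group (acute kidney injury, 4 samples) had cisplatin alone, the UC group (4 samples) also received mesenchymal stem cells from umbilical cord, and the pFUS_UC group (4 samples) received pulsed focused ultrasound and these cells. The study asked whether ultrasound before the cells adds to their effect on the injured kidney. No group analysed here was uninjured or had ultrasound without cells. The sources used here do not give age, sex, cell dose or time of sampling.

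B cells carry antibody on their surface as part of the antigen receptor, and plasma cells, which descend from them, secrete it. An antibody joins heavy chains, whose constant part sets the class (IgM, IgD, IgG, IgA or IgE), with kappa or lambda light chains. IgA and IgM can be joined by the J chain into polymers that epithelia carry into secretions, and the urinary tract is a mucosal surface where IgA is secreted.

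Libraries held 17.3 to 25.2 M (mega) counts. Levels are given as CPM, counts scaled to a library of 1 M after TMM normalization, and 3 counts, the most that a count of 0 allows, correspond to 0.126 to 0.187 CPM. Such limits cover counting error only. Mitochondrially encoded genes took 2.87 to 7.12% of counts in AKI kidneys, 8.57 to 18.6% in UC kidneys and 7.38 to 15.3% in pFUS_UC kidneys. The 4 AKI samples have codes of a different series from the 8 samples that received cells, so the absence of cells and a possible library batch cannot be told apart. UC and pFUS_UC codes are of 1 series. The labels do not say that the samples of a group came from separate animals, so p-values measure the spread between samples. All 9 kidney markers examined passed the filter on low counts, among them Slc34a1, the phosphate transporter of the proximal tubule, at 2920 to 6710 CPM, as the tissue label has it.

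The transcripts that carry most of the signal are shown first. Igkc (ENSMUSG00000076609) is the constant exon shared by every kappa light chain, at chr6:70703419-70703950 on the plus strand of GRCm39, the build named for the count table. The last 99 codons of its GENCODE M21 transcript (build GRCm38) follow, with the codon of the final cysteine, which bonds the light chain to the heavy chain, in capitals.
Igkc: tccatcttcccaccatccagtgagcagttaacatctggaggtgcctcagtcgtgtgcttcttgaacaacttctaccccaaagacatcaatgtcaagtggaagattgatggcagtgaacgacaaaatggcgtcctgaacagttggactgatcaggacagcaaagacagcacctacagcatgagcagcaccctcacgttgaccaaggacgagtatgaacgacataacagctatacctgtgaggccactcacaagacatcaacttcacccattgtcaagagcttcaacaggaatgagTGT
Igha (ENSMUSG00000095079, chr12:113218450-113223856, minus strand) and Ighm (ENSMUSG00000076617, chr12:113382178-113386350, minus strand) are the constant genes of the IgA and IgM heavy chains. Their secreted forms end in a tail through which the J chain is joined. The last 18 codons of each, from the same annotation, are shown with the codon of the cysteine that takes part in this joining in capitals.
Igha: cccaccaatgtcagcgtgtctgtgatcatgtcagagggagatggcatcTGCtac
Ighm: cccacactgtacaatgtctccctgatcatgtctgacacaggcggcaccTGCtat
The tails are identical at 35 of 54 bases and share 5 of 18 codons, and both hold the cysteine codon at the same place. The table counts whole genes, so the membrane and the secreted forms were not separated.

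Igha was lowest in UC kidneys, highest on average in AKI kidneys and intermediate in pFUS_UC kidneys. Its level was 12.3, 5.95, 10.8 and 2.11 CPM in AKI samples 1 to 4. In UC samples 1 to 4 it was 0.125, 0.430, 0.308 and 1.2 CPM, from 2, 7, 7 and 25 counts. In pFUS_UC samples 1 to 4 it was 1.99, 5.29, 3.21 and 2.66 CPM. Every UC sample lay below every sample of the other groups, whereas AKI sample 4 lay within the pFUS_UC range. The means were 7.78 ± 4.64, 0.516 ± 0.475 and 3.29 ± 1.43 CPM (SD, n = 4 each), so the UC mean was 15.1-fold lower than the AKI mean and the pFUS_UC mean 6.37-fold higher than the UC mean. The fitted log2 fold change was -3.87 (SE 0.63) in UC against AKI, 2.62 (SE 0.63) in pFUS_UC against UC and -1.25 (SE 0.54) in pFUS_UC against AKI. Without UC sample 4, which had most of the UC counts, the first of these was -4.74 and the second 3.47. In bulk tissue, fewer cells of a type and less RNA per cell cannot be told apart.

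Igkc followed the same order with a smaller range. Its level was 5.92, 4.41, 6.28 and 3.56 CPM in AKI samples 1 to 4, and 0.748, 0.983, 0.528 and 1.88 CPM in the UC samples. The pFUS_UC samples had 2.72, 5.24, 3.72 and 4.09 CPM. Again all UC samples were lowest, and the AKI and pFUS_UC samples overlapped. The means of 5.04 ± 1.28, 1.03 ± 0.592 and 3.94 ± 1.04 CPM (SD, n = 4 each) put UC 4.88-fold below AKI and pFUS_UC 3.81-fold above UC. The log2 fold change was -2.28 (SE 0.37) in UC against AKI, 1.92 (SE 0.37) in pFUS_UC against UC and -0.36 (SE 0.33) in pFUS_UC against AKI. With offsets that correct for gene length in each library the values against AKI were -2.98 in UC and -1.09 in pFUS_UC. Igkc overlaps the noncoding gene Gm30211 on the same strand, which had at most 1 count in any library.

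The choice of these genes rested on all 3 contrasts, so the shares over all genes are given only as background. CPM did not overlap between UC and AKI for 41.7% of the 16947 tested genes, between pFUS_UC and AKI for 40.8%, and between pFUS_UC and UC for 3.9%. Among the 6 tested antibody and receptor genes, Igha and Igkc had no overlap between UC and AKI or between pFUS_UC and UC, and none of the 6 separated pFUS_UC from AKI. The comparisons with AKI share the same 4 AKI samples, and those with UC the same 4 UC samples.

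**Figure D1:**
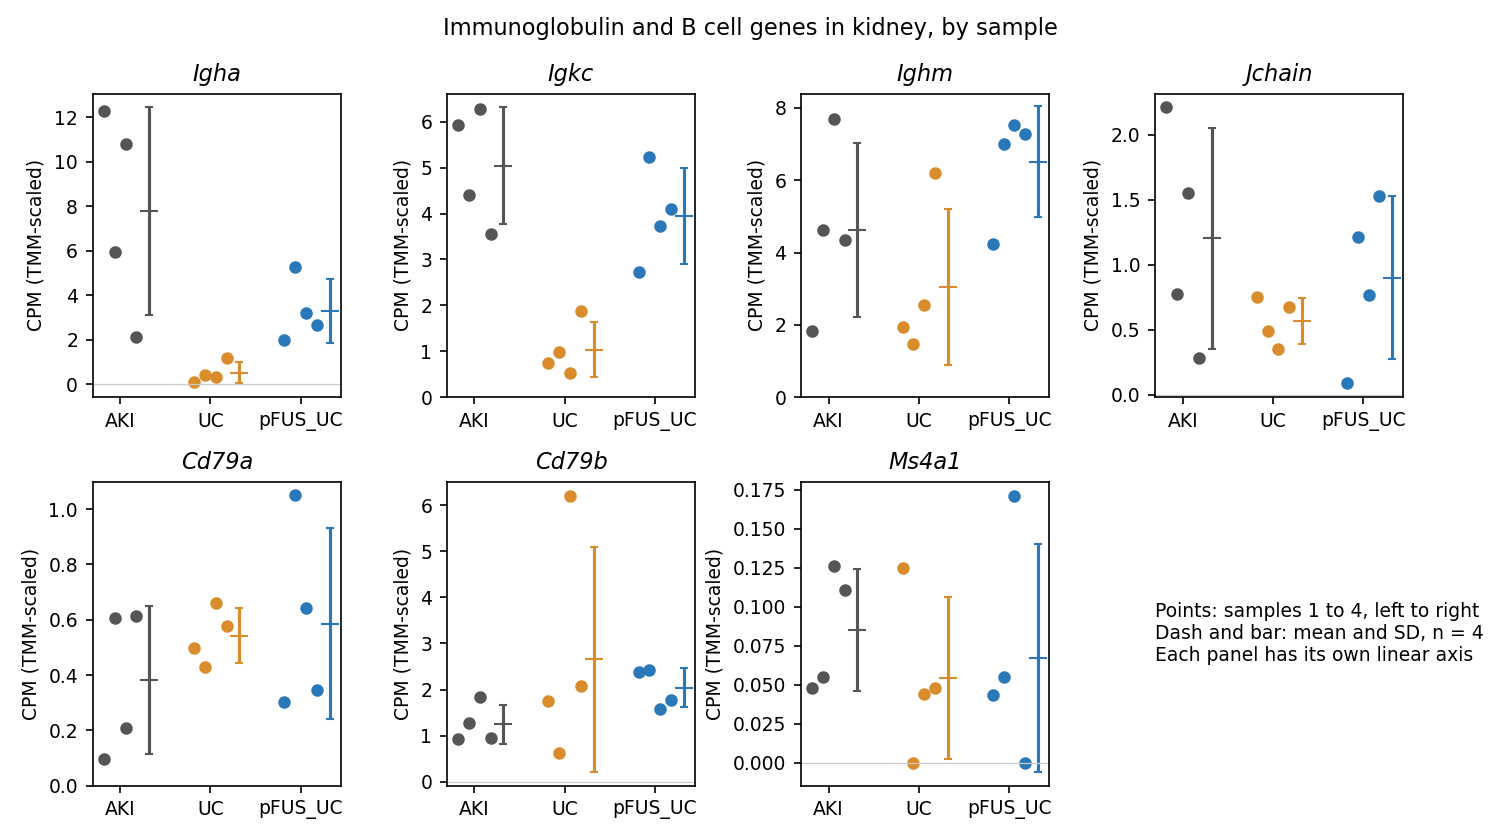
TMM-scaled CPM of each gene in every sample (y axis, a linear scale for each panel) by group (x axis); points are samples 1 to 4 from left to right, and the dash with its bar is the mean and SD (n = 4). The 4 UC samples lie lowest for Igha (0.125 to 1.2 CPM) and Igkc (0.528 to 1.88 CPM), while the groups overlap for the other 5 genes.

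Ighm had its highest mean in pFUS_UC kidneys (6.51 ± 1.53 CPM) and not in AKI kidneys (4.62 ± 2.41 CPM), unlike Igha. Its mean was lowest in UC kidneys (3.04 ± 2.16 CPM, SD, n = 4 each), as for Igha. Its level was 1.83, 4.63, 7.70 and 4.34 CPM in AKI samples 1 to 4, and 1.93, 1.47, 2.55 and 6.21 CPM in the UC samples. The pFUS_UC samples had 4.24, 7.0, 7.53 and 7.28 CPM. The groups overlapped, with UC sample 4 standing above the other UC samples. The log2 fold change was -0.60 (SE 0.46, 95% interval -1.49 to 0.3, edgeR adjusted p = 0.296) in UC against AKI. It was 0.49 (SE 0.45, edgeR adjusted p = 0.394) in pFUS_UC against AKI. In pFUS_UC against UC it was 1.08 (SE 0.46, 95% interval 0.19 to 1.98), which did not pass adjustment over all genes (edgeR adjusted p = 0.614). Without UC sample 4 the value in UC against AKI was -1.23 and passed (edgeR adjusted p = 0.0275).

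Jchain (ENSMUSG00000067149, chr5:88667668-88675750, minus strand), the gene of the joining chain, was low and variable. It had 2.21, 0.771, 1.55 and 0.278 CPM in AKI samples 1 to 4, and 0.748, 0.491, 0.352 and 0.674 CPM in the UC samples. The pFUS_UC samples had 0.0865, 1.21, 0.770 and 1.53 CPM. The groups overlapped, and the lowest value of all, 2 counts, was in pFUS_UC sample 1. The log2 fold change was -1.10 (SE 0.68, edgeR adjusted p = 0.195) in UC against AKI, with an interval of -2.44 to 0.23 that covers both a clear fall and a small rise. In pFUS_UC it was -0.45 (SE 0.65, edgeR adjusted p = 0.601) against AKI and 0.66 (SE 0.69, adjusted p = 0.837) against UC. Without AKI sample 1, which had the most Jchain, the value in pFUS_UC against AKI was 0.01.

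The share of heavy chain reads that fell on Igha compares classes within a library and so does not depend on library size or scaling. IgA made up 84.7% (95% interval 80.1 to 88.6), 50.9% (44.0 to 57.9), 56.0% (51.3 to 60.6) and 28.6% (21.1 to 37.0) of heavy chain constant reads in AKI samples 1 to 4. In UC samples 1 to 4 the share was 5.41% (0.661 to 18.2), 19.4% (8.19 to 36), 9.59% (3.94 to 18.8) and 15.3% (10.2 to 21.8). In the pFUS_UC samples it was 29.5% (22.5 to 37.3), 39.3% (33.2 to 45.8), 26.1% (21.1 to 31.6) and 25.2% (19.6 to 31.6). The exact binomial (Clopper-Pearson) intervals cover counting error only. All UC shares lay below those of both other groups, and the AKI samples spread over a wider range than the pFUS_UC samples. The mean share of AKI kidneys was 55.0 ± 23.1%, that of UC kidneys 12.4 ± 6.17% and that of pFUS_UC kidneys 30 ± 6.45% (SD, n = 4 each). IgM took 37.7 ± 18.9%, 77.3 ± 7.36% and 61.3 ± 7.1% in the same order. Since Igha was chosen for its difference, these shares are given with no test.

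Other antibody classes were close to the detection limit. The 4 IgG constant genes together had 26 reads in AKI, 6 in UC and 52 in pFUS_UC, and 19 of the last were Ighg1 reads in pFUS_UC sample 3. Ighd, the IgD gene expressed by naive B cells, had 1 to 17 counts per library, and Ighe, the IgE gene, had 0 in all 12. Kappa exceeded lambda throughout: Igkc summed to 417, 79 and 328 reads and the 3 lambda constant genes to 8, 9 and 21 reads in AKI, UC and pFUS_UC. None of these 9 further constant genes had enough reads to be tested. The IgG genes resemble each other, as do the lambda genes, so how reads were divided within each family is uncertain.

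**Figure D2:**
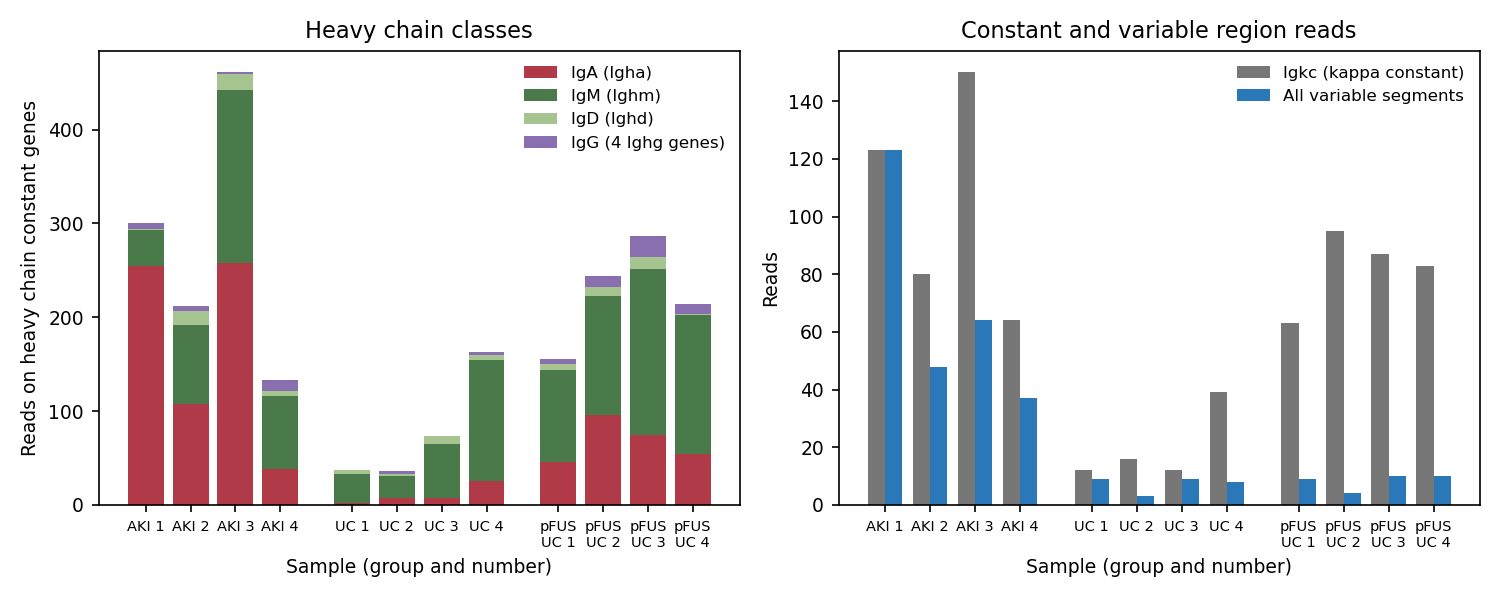
Reads per sample (x axis) on heavy chain constant genes by antibody class (left, stacked bars) and on Igkc beside all variable segments (right). IgA takes 28.6 to 84.7% of heavy chain reads in AKI and 5.41 to 19.4% in UC; variable segment reads run from 37 to 123 in AKI and from 3 to 10 in UC and pFUS_UC.

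Reads on variable segments, the parts of an antibody gene that differ between B cell clones, did not follow the constant genes. They numbered 123, 48, 64 and 37 in AKI samples 1 to 4, 9, 3, 9 and 8 in the UC samples, and 9, 4, 10 and 10 in the pFUS_UC samples. So pFUS_UC, whose constant genes summed to 1250 reads against 1532 in AKI and 397 in UC, had variable reads at the level of UC. For every 100 constant reads there were 10.4 to 29 variable reads in AKI samples, 3.86 to 17.6 in UC and 1.15 to 4.07 in pFUS_UC. The AKI and pFUS_UC ranges did not overlap. Since AKI codes are of another series, how the libraries were made and the treatment cannot be told apart in this ratio.

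The variable reads were spread thinly over many segments. Of 218 variable segment genes in the table, 112 had a read in some library and 0 passed the filter for testing. An average AKI library had reads on 36 ± 14.1 segments, a UC library on 3.0 ± 0.816 and a pFUS_UC library on 6.0 ± 1.83 (SD, n = 4 each). In AKI 39 segments had reads in at least 2 libraries, compared with 1 in UC and 3 in pFUS_UC. The most read segment was Ighv14-2, with 20 reads in AKI, 11 in UC and 4 in pFUS_UC, followed by Igkv10-96, with 11 reads in AKI, 7 of them in sample 1, and 0 in the other groups. Segments of 1 family resemble each other closely, so how reads were divided among them is uncertain.

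The antigen receptor genes did not share the pattern of Igha and Igkc. Cd79a (ENSMUSG00000003379, chr7:24596806-24601622, plus strand) and Cd79b (ENSMUSG00000040592, chr11:106202167-106205588, minus strand) encode the paired signalling chains of the B cell receptor. Cd79a had 0.0962, 0.606, 0.209 and 0.612 CPM in AKI samples 1 to 4, 0.498, 0.430, 0.660 and 0.577 CPM in the UC samples and 0.303, 1.05, 0.642 and 0.345 CPM in the pFUS_UC samples, or 2 to 19 counts. The groups overlapped, and AKI sample 1 was lowest. The log2 fold change of Cd79a was 0.55 (SE 0.56, edgeR adjusted p = 0.437) in UC against AKI, 0.63 (SE 0.55, adjusted p = 0.377) in pFUS_UC against AKI and 0.08 (SE 0.54, adjusted p = 0.984) in pFUS_UC against UC. The interval of the last, -0.97 to 1.13, leaves room for a change of the size seen in Ighm.

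Cd79b was higher than Cd79a in every sample per length: its mean was 0.878, 1.85 and 1.42 FPKM in AKI, UC and pFUS_UC, and that of Cd79a 0.265, 0.372 and 0.399 FPKM. In CPM, Cd79b stood at 0.914, 1.27, 1.84 and 0.946 in AKI samples 1 to 4, and at 2.38, 2.43, 1.58 and 1.77 in the pFUS_UC samples. The UC samples had 1.74, 0.614, 6.21 and 2.07 CPM. UC sample 3 was by far the highest of the 12 and UC sample 2 the lowest. In UC against AKI the log2 fold change was 1.10 (SE 0.52, edgeR adjusted p = 0.0975). It was 0.25 without UC sample 3, and 1.42 without UC sample 2, where it passed (edgeR adjusted p = 0.0201). In pFUS_UC it was 0.70 (SE 0.53, edgeR adjusted p = 0.297) against AKI and -0.40 (SE 0.51, adjusted p = 0.876) against UC, and the latter was 0.45 without UC sample 3.

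Ms4a1 (ENSMUSG00000024673, chr19:11227039-11243605, minus strand), which encodes CD20, the surface protein of mature B cells, was barely detected. Its counts were 1, 1, 3 and 2 in AKI samples 1 to 4, 2, 0, 1 and 1 in the UC samples and 1, 1, 4 and 0 in the pFUS_UC samples. It did not pass the filter on low counts. With no filter its log2 fold change was -0.66 (edgeR adjusted p = 0.733) in UC against AKI, -0.33 (adjusted p = 0.915) in pFUS_UC against AKI and 0.34 (adjusted p = 0.982) in pFUS_UC against UC, so a difference between the groups was not detectable at this depth. Pax5, the transcription factor that keeps B cell identity, had 0 to 11 counts per library. Other genes of the B cell list stood far higher, such as Blnk at 17.5 to 31.6 CPM and Ralgps2 at 15.5 to 22.9 CPM.

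Compared per length, Igkc had the highest mean of the 7 genes in all 3 groups, at 9.55, 1.95 and 7.38 FPKM in AKI, UC and pFUS_UC. In AKI it was followed by Igha at 2.93 ± 1.74 FPKM and Ighm at 2.49 ± 1.32 FPKM, which do not differ beyond their spread. In UC the levels of Igkc (1.95 ± 1.11 FPKM), Cd79b (1.85 ± 1.69 FPKM) and Ighm (1.61 ± 1.14 FPKM) lay within their spread. Without UC sample 4 the order turned, with Cd79b at 1.99 and Igkc at 1.42 FPKM. Igha stood at 0.194 ± 0.178 FPKM, near Jchain at 0.225 ± 0.0717 FPKM. In pFUS_UC it was Ighm at 3.44 ± 0.811, Cd79b at 1.42 ± 0.293 and Igha at 1.23 ± 0.528 FPKM, the latter pair within their spread (SD, n = 4 for each value). Ms4a1 was lowest everywhere, at 0.00877 to 0.0139 FPKM. These FPKM divide by the gene length of the count table, 2668 bases for Igha and 1886 for Ighm. The transcripts that gave the tails above have 1100 and 1493 bases. The place of Igha in the order per length therefore depends on the length used.

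Other genes of the B lineage moved in both directions. Of 47 genes in lists of other constant genes, plasma cell genes and B cell genes, 23 were tested. In UC against AKI 5 rose and 5 fell, where 24.1% of all tested genes rose, 24.3% fell and 48.4% changed in either direction. In pFUS_UC against AKI 5 rose and 4 fell, where 21.9% of all tested genes rose, 22.1% fell and 44% changed. The median log2 fold change of the 23 genes was 0.06 and 0.11, beside 0.03 and 0.02 over all tested genes. The first count was 6 without AKI sample 2 or 3 or UC sample 2, and the second 5 without AKI sample 2 or pFUS_UC sample 2 or 3. Both full counts are near the shares over all genes, and none of the 4 tested antibody and receptor genes outside the first pair passed in any comparison.

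Plasma cell genes did not move together. Prdm1, the transcription factor that drives B cells to become plasma cells, fell: it had 1.5 to 2.09 CPM in AKI, 0.249 to 0.722 CPM in UC and 0.216 to 0.886 CPM in pFUS_UC. All AKI samples were above all others (log2 fold change -2.09, SE 0.47, edgeR adjusted p = 0.00259 in UC; -1.73, SE 0.45, adjusted p = 0.00759 in pFUS_UC). Tnfrsf13b, a receptor for B cell survival factors, fell in UC (log2 fold change -1.48, SE 0.55, edgeR adjusted p = 0.0392), with 0.337 to 0.753 CPM in AKI, 0 to 0.385 CPM in UC and 0.556 to 0.738 CPM in pFUS_UC. Its log2 fold change in pFUS_UC against AKI was 0.02 (SE 0.49, edgeR adjusted p = 0.981). Its UC call was lost without AKI sample 2, 3 or 4 or UC sample 1, 2 or 3 (edgeR adjusted p = 0.0555 to 0.0899), and with no filter (0.0697).

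Mzb1, a chaperone that helps antibody assembly in the endoplasmic reticulum, rose in UC against AKI (log2 fold change 1.5, SE 0.51, edgeR adjusted p = 0.0275), opposite to Igha and Igkc. It had 0.167 to 1.35 CPM in AKI, 1.11 to 2.15 CPM in UC and 0.735 to 1.11 CPM in pFUS_UC. The highest AKI sample, sample 1, lay within the UC range and apart from the other AKI samples, at 0.167 to 0.334 CPM. The elongation-associated gene Eaf2 rose in both groups with cells, from 4.23 to 8.52 CPM in AKI to 14.7 to 21 CPM in UC (log2 fold change 1.57, SE 0.23, edgeR adjusted p = 0.000152) and 11.3 to 19.5 CPM in pFUS_UC (1.43, SE 0.23, adjusted p = 0.00036). Fkbp11, a folding enzyme abundant in secretory cells, also rose in both, by 1.10 (SE 0.24, edgeR adjusted p = 0.00218) and 0.73 (SE 0.24, adjusted p = 0.0238) on the log2 scale. Xbp1 and Sdc1, which tubule cells also express, fell in pFUS_UC against AKI, by 0.55 (SE 0.20, edgeR adjusted p = 0.0414) and 0.61 (SE 0.20, adjusted p = 0.0273) on the log2 scale, and did not pass in UC. The call of Mzb1 was lost without AKI sample 2, 3 or 4 or UC sample 2 or 3 (edgeR adjusted p = 0.054 to 0.0756). It was also lost with gene length offsets (0.109) and with separate fits for each pair of groups (0.0543). That of Fkbp11 in pFUS_UC was lost without AKI sample 1 or 2 or pFUS_UC sample 2, 3 or 4 (0.0523 to 0.072). Those of Xbp1 and Sdc1 were lost in 6 and 5 of the fits that left out a single sample (edgeR adjusted p up to 0.123 and 0.0777). Both were lost with a replicate block (0.0531 and 0.054).

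Among the B cell genes, Ebf1, a transcription factor of early B cells that stromal and fat cells express as well, fell in both groups with cells. It had 6.06 to 8.60 CPM in AKI, 1.37 to 3.42 CPM in UC and 3.24 to 3.69 CPM in pFUS_UC, with no overlap between AKI and either group. Its log2 fold change was -1.71 (SE 0.25, edgeR adjusted p = 0.00015) in UC and -1.15 (SE 0.24, adjusted p = 0.00205) in pFUS_UC. Cd72 and Cd180, surface receptors of B cells, fell in UC, by 1.60 (SE 0.54, edgeR adjusted p = 0.0265) and 1.48 (SE 0.58, adjusted p = 0.0489) on the log2 scale. Blnk, an adaptor of the antigen receptor, rose in both, by 0.43 (SE 0.14, edgeR adjusted p = 0.0214) and 0.45 (SE 0.14, adjusted p = 0.0197). Ly6d, which epithelia make as well, rose in both by 1.40 (SE 0.35, edgeR adjusted p = 0.00493) and 1.85 (SE 0.35, adjusted p = 0.00108), while Fcmr, the IgM Fc receptor, rose in pFUS_UC by 1.12 (SE 0.41, adjusted p = 0.0387). Beside Ly6d, 5 of 6 urothelial genes rose in each group against AKI, where 24.1% and 21.9% of all tested genes did, with median log2 fold changes of 1.22 and 1.42. UC sample 3 was highest of the UC samples in Ly6d (7.97 CPM) and in Upk3a, a urothelial plaque protein (25.4 CPM), and without it 1 urothelial gene passed in UC. In UC 2 passed without AKI sample 1 or 4, and in pFUS_UC 3 passed without AKI sample 4 or pFUS_UC sample 4. The part of urothelium in the Ly6d level was not tested. The call of Cd72 was lost without AKI sample 3 or UC sample 1 or 2 (edgeR adjusted p = 0.065 to 0.0773), and that of Cd180 without AKI sample 1, 2 or 3 or UC sample 1, 2 or 3 (0.0543 to 0.145). The call of Blnk was lost in UC without AKI sample 1 or 2 or UC sample 3 or 4 (edgeR adjusted p = 0.0526 to 0.0819) and in pFUS_UC without AKI sample 1 or pFUS_UC sample 2 (0.0505 to 0.052). That of Fcmr was lost without AKI sample 1 or 2 or any pFUS_UC sample (edgeR adjusted p = 0.0547 to 0.101), and that of Ly6d in UC with gene length offsets (0.0813). Those of Prdm1, Eaf2 and Ebf1 passed under every alternative tried.

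Between pFUS_UC and UC no gene passed: edgeR called 0% of tested genes, with 1342 genes at an unadjusted p below 0.05, and DESeq2 called 44 genes. Of the 23 B lineage genes 3 had an unadjusted edgeR p below 0.05 there.

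**Figure D3:**
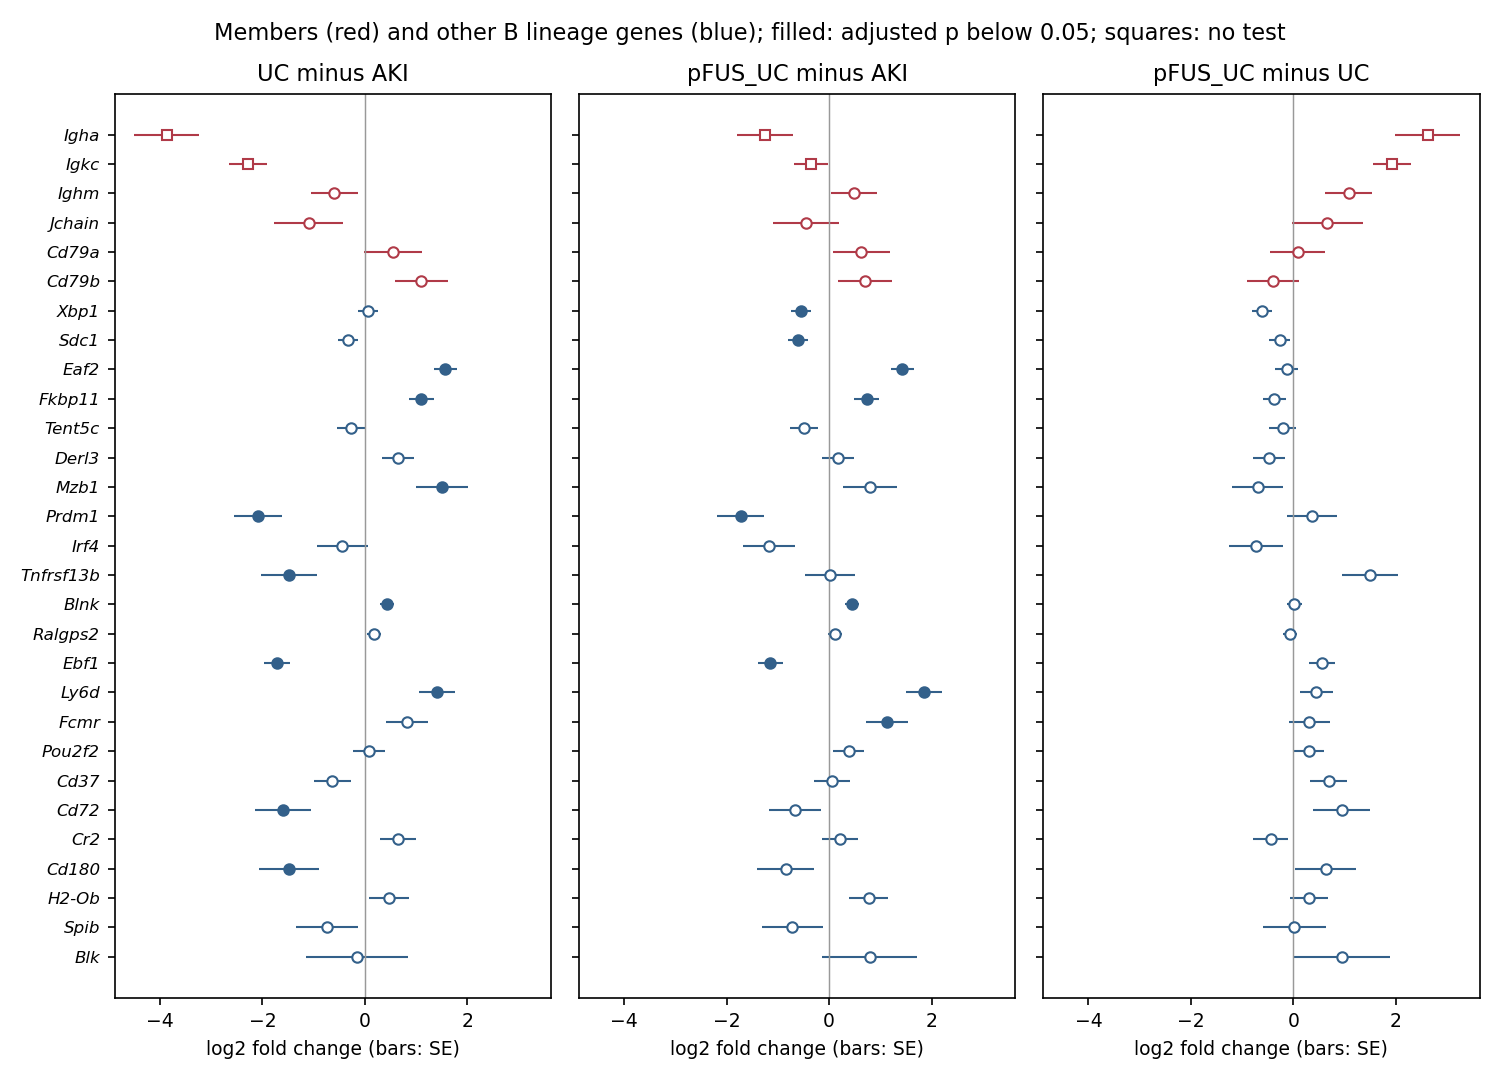
Log2 fold changes (x axis, the same scale in each panel; bars are SE) of the 6 tested antibody and receptor genes (red) and the 23 other tested B lineage genes (blue) in the 3 comparisons; filled symbols passed edgeR at an adjusted p below 0.05 and squares were not tested. Igha (-3.87) and Igkc (-2.28) are the lowest in UC against AKI, and filled symbols lie on both sides of 0 there.

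No gene for antibody transport was called in the fit of all samples. None of 8 transport and Fc receptor genes passed in any comparison with all samples. Against AKI, 48.4% of all tested genes were called in UC and 44% in pFUS_UC. Without AKI sample 1, 1 of the 8 rose and 1 fell in UC against AKI, and 1 rose in pFUS_UC against AKI. Without UC sample 4, 1 fell in UC against AKI. Pigr, the receptor that carries IgA and IgM polymers across epithelia, averaged 104 ± 78.4 CPM in AKI kidneys, 77.1 ± 11.5 CPM in UC kidneys and 128 ± 71.3 CPM in pFUS_UC kidneys (SD, n = 4 each). Its log2 fold change was -0.43 (SE 0.45, edgeR adjusted p = 0.448) in UC and 0.31 (SE 0.44, adjusted p = 0.597) in pFUS_UC against AKI, and its samples ran from 44.7 to 219 CPM in AKI. Fcgrt, the receptor that protects IgG from breakdown, had log2 fold changes of -0.03 (SE 0.22, edgeR adjusted p = 0.932) and 0.05 (SE 0.22, adjusted p = 0.875).

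Of 11 tested genes for B lineage survival, homing and class switching, 6 fell and 1 rose in UC against AKI, and 3 fell and 1 rose in pFUS_UC against AKI, beside 24.3% lower and 24.1% higher over all tested genes in UC and 22.1% and 21.9% in pFUS_UC. Without AKI sample 2 there were 3 falls in UC, as Tnfsf13b, Cxcr4 and Itgb7 were lost, and without AKI sample 4, UC sample 2 or UC sample 3 there were 4. Cxcl12, a chemokine that holds plasma cells in their niche, had 207 to 397 CPM in AKI, 62.8 to 167 CPM in UC and 86.7 to 194 CPM in pFUS_UC. It fell by 1.75 (SE 0.34, edgeR adjusted p = 0.00107) and 1.23 (SE 0.33, adjusted p = 0.00971) on the log2 scale. Ccl28, a chemokine that attracts IgA plasma cells to mucosa, had 27.7 to 63.1 CPM in AKI, 7.0 to 24.5 CPM in UC and 8.10 to 19.3 CPM in pFUS_UC. It fell by 1.46 (SE 0.36, edgeR adjusted p = 0.00497) and 1.91 (SE 0.37, adjusted p = 0.00126). For both chemokines all AKI samples were above all others, unlike Igha and Igkc, where AKI and pFUS_UC overlapped. Tgfb1, the cytokine that directs switching to IgA, fell by 0.92 (SE 0.20, edgeR adjusted p = 0.00222) and 1.11 (SE 0.20, adjusted p = 0.000922). Tnfsf13b, which encodes the B cell survival factor BAFF, fell in UC by 1.14 (SE 0.42, edgeR adjusted p = 0.0374) and had -0.81 (SE 0.41, adjusted p = 0.125) in pFUS_UC. The UC call was lost without AKI sample 2 or 4 or UC sample 1, 2 or 3 (edgeR adjusted p = 0.065 to 0.165), and under 10 of 19 alternatives in all. The 1 gene that rose was Ccl25 in both groups, by 1.05 (SE 0.30, edgeR adjusted p = 0.0104) and 1.13 (SE 0.29, adjusted p = 0.00768). Both of its calls passed under every alternative tried. Vcam1, which was more abundant than Ccl25, had log2 fold changes of 0.19 (SE 0.44, edgeR adjusted p = 0.739) and -0.30 (SE 0.44, adjusted p = 0.599).

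Markers of other tissues were read beside these genes. Adipocyte genes summed to 90.9 to 209 CPM in AKI, 43.5 to 103 CPM in UC and 96.3 to 296 CPM in pFUS_UC. Their means were 134, 70.5 and 204 CPM. UC was lowest on average, as for Igha and Igkc, but pFUS_UC was highest, where for those genes AKI was. The UC and AKI sums overlapped. Of 8 tested adipocyte genes 4 fell in UC against AKI, where 24.3% of all tested genes fell, among them Adipoq, the fat hormone adiponectin, by 2.79 (SE 0.66, edgeR adjusted p = 0.00384) and Plin1, a lipid droplet protein, by 3.44 (SE 0.61, adjusted p = 0.000565). In UC 3 adipocyte genes fell without AKI sample 3 or 4 or UC sample 1, 2 or 4. The call lost in each case was that of Cfd (edgeR adjusted p = 0.0568 to 0.155). Against AKI in pFUS_UC, Adipoq had a log2 fold change of 0.10 (SE 0.58, edgeR adjusted p = 0.904). The single adipocyte call there was Fabp4, a fatty acid carrier, which rose by 1.23 (SE 0.36, edgeR adjusted p = 0.0153), from 24.9 to 37.4 CPM in AKI to 49.7 to 87.4 CPM, and was at 8.35 to 36.9 CPM in UC. Adipoq had 1.87 to 7.58 CPM in AKI, 0.184 to 1.63 CPM in UC and 1.71 to 9.50 CPM in pFUS_UC. Lipe, more abundant than Adipoq and Plin1 with a mean of 33.3 CPM over all samples, did not follow them. Its log2 fold change was 0.04 (SE 0.17, edgeR adjusted p = 0.879) in UC and 0.13 (SE 0.17, adjusted p = 0.571) in pFUS_UC against AKI.

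Lymph node and lymphatic genes summed to 49.4 to 77.6 CPM in AKI, 10.5 to 43.2 CPM in UC and 31.1 to 45.6 CPM in pFUS_UC, and 4 of 7 fell in UC and 3 of 7 in pFUS_UC against AKI, beside 24.3% and 22.1% of all tested genes. Ccl21a, a chemokine of lymphatic vessels and lymph nodes, had 5.20 to 12.3 CPM in AKI, 0.623 to 2.89 CPM in UC and 4.84 to 10.7 CPM in pFUS_UC. Its log2 fold change was -2.61 (SE 0.49, edgeR adjusted p = 0.000822) in UC and -0.11 (SE 0.44, adjusted p = 0.857) in pFUS_UC against AKI. The other 3 called genes fell in both groups: Flt4, a growth factor receptor of lymphatic endothelium, by 2.42 (SE 0.37, edgeR adjusted p = 0.000204) and 1.79 (SE 0.35, adjusted p = 0.00154), and likewise Lyve1 and Ccl19. Prox1, the most abundant gene of the list and a lymphatic transcription factor, had -0.53 (SE 0.42, edgeR adjusted p = 0.311) and -0.33 (SE 0.42, adjusted p = 0.546). Without UC sample 4 the lymphatic falls in UC numbered 6, and without AKI sample 4 those in pFUS_UC numbered 2. T and NK cell genes gave no call of 6 in any comparison with all samples. Against AKI, 48.4% of all tested genes were called in UC and 44% in pFUS_UC. The T and NK cell genes summed to 5.0 to 12.5, 5.48 to 19.6 and 10.5 to 28.4 CPM in AKI, UC and pFUS_UC. The upper ends in UC and pFUS_UC rest largely on Cd8a, at 11.0 CPM in UC sample 4 and 9.67 and 21.9 CPM in pFUS_UC samples 3 and 4. Without UC sample 4, 2 genes of this list fell in UC against AKI. Without AKI sample 1 or 4, 1 rose in UC against AKI. Without AKI sample 2 or 3, 2 rose in pFUS_UC against AKI. In that comparison 1 rose without AKI sample 1 or 4 or pFUS_UC sample 1, 2 or 4. Of 8 myeloid genes 4 fell in UC, beside 24.3% of all tested genes, including Mrc1, a macrophage receptor, by 1.82 (SE 0.38, edgeR adjusted p = 0.00172). The most abundant of them, Csf1r and Lyz2, had log2 fold changes of 0.02 (SE 0.25, edgeR adjusted p = 0.963) and 0.07 (SE 0.55, adjusted p = 0.92) in UC. In pFUS_UC the 2 myeloid falls, beside 22.1% of all genes, were others, Cd68 and S100a9, and numbered 1 without AKI sample 2 or 4 or pFUS_UC sample 2 or 4. None of the adipocyte or lymphatic genes was at 0 in all libraries, and the part of these tissues in the antibody gene levels was not tested. Pax5, Ighe, Lyve1, Ccl19, Cd68, S100a9, Cxcr4 and Itgb7 were named after their values were seen.

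**Figure D4:**
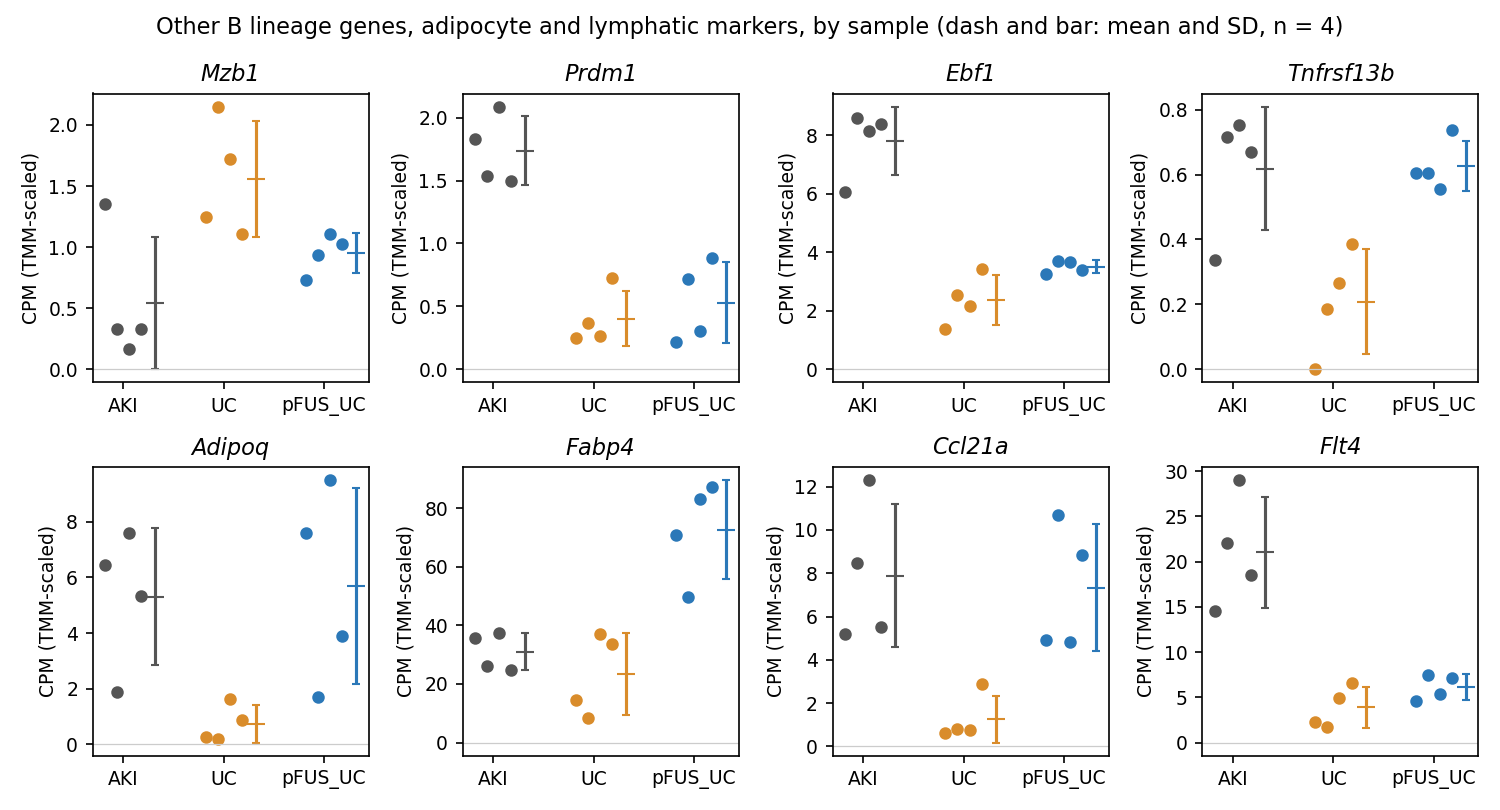
TMM-scaled CPM by sample (y axis, linear, a scale for each panel) in each group (x axis) for 4 B lineage genes, the adipocyte genes Adipoq and Fabp4 and the lymphatic genes Ccl21a and Flt4; points are samples 1 to 4 and the dash with its bar is the mean and SD (n = 4). Adipoq and Ccl21a are low in UC and overlap between AKI and pFUS_UC, Fabp4 is highest in pFUS_UC, Prdm1, Ebf1 and Flt4 are low in both groups with cells and Mzb1 has its highest mean in UC (1.55 CPM).

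The genes most like Igha over the 12 samples were sought by the root mean square difference of log2(CPM + 0.5), each gene centred on its own mean. The nearest were Esm1 (0.54), Igkc (0.58), Ccl21a (0.66), Nr1d1 (0.66) and Npr3 (0.71), where the median tested gene stood at 1.41. Igkc was nearest to Lum (0.31), Twist1 (0.41), Dbp (0.41), Btnl9 (0.41) and Scara5 (0.42), with a median of 0.96, and Igha came at rank 124 (0.58). Since all 12 values share library and depth and the groups differ at many genes, these distances are only a description. They depend on how much each gene varied as well as on its pattern. Of the other antibody genes, Jchain came at rank 1101 from Igha and Ighm at rank 3185.

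Cd79b had other neighbours. They were Pglyrp1 (0.22), Fam174b (0.28), Aqp2 (0.29), Ehf (0.29) and Arhgdig (0.30), with a median of 0.72, whereas Cd79a came at rank 2544 (0.61). Aqp2 encodes the water channel of the kidney collecting duct. It ran from 578 to 1010 CPM in AKI, from 604 to 2510 in UC and from 868 to 1520 in pFUS_UC, and rose in UC against AKI (log2 fold change 0.89, SE 0.34, edgeR adjusted p = 0.0412), a call lost without UC sample 3 (adjusted p = 0.165), UC sample 1 or AKI sample 1, 2 or 4. The Aqp2 call was lost under 11 of 19 alternatives in all, among them gene length offsets (edgeR adjusted p = 0.253). UC sample 3 was highest and UC sample 2 lowest of the UC samples in Aqp2 as in Cd79b. Aqp2 was found by its nearness to Cd79b over these same samples, so this shared order is no separate observation. Igha lay near the far end of the ranking from Cd79b, at rank 16887. The median tested gene stood 1.41 from Igha, so this rank reflects the wide range of Igha as well as its pattern.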

How the data were processed

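Bulk RNA sequencing of 12 kidney samples was used, in 3 groups of 4 taken from the sample titles. The authors deposited raw counts per gene with coordinates, lengths and biotypes, and a table of FPKM values for the same samples. FPKM scale counts to gene length and library size, and the deposited FPKM equal counts over gene length and a scaled library total. HTSeq, DESeq2 and GRCm39 (mm39) are named in the submitters' processing notes, without versions. The aligner is not given in the sources used here, nor is the strand setting.

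Counts of the 12 samples entered 1 fit of edgeR 4.0.16 (R 4.3.3). The filter filterByExpr (minimum count 10, minimum total 15) kept 16947 genes, TMM scaled the libraries, and the quasi-likelihood F-test had 9 degrees of freedom for the residual. Benjamini-Hochberg adjustment ran over all tested genes, and an adjusted p below 0.05 was a call. Of the 7 genes, 6 passed the filter and Ms4a1 did not. SE is the absolute log2 fold change over the square root of F, and 95% intervals come from it. Replicate correlations across genes, which are not independent replicates, were 0.961 to 0.981 within groups. The script was tested on simulated data.

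The 7 genes and 13 other lists were chosen with earlier results of these data known. Some listed genes are not reported here. Named genes are the 7, up to 6 of the most abundant genes of each list, every called B lineage gene, the 6 most read variable segments and the 5 genes nearest to Igha, Igkc and Cd79b. Outside the lists of constant, plasma cell and B cell genes, only some of those 6 were named, in part picked by hand. A further 8 genes were named after their values were seen. Alternatives were DESeq2 1.42.0, its size factors, library totals only, no filter, a minimum of 1 CPM in 4 samples, gene length offsets, a replicate block, separate fits for each pair of groups, limma 3.58.1 on log2 FPKM with pseudocounts of 1 and 0.1, and each sample left out. GENCODE M21 (GRCm38) transcripts gave the sequences; they were matched by transcript name, and no coordinate was taken from that build.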

Additional observations from a re-analysis of the deposited data

Results flagged for a closer look

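In 32 of 243 groups of 4 values, 1 sample stood apart from the others of its group by more than Dixon's limit. The limit gives about 1 in 20 groups by chance only for independent normal values. These values share libraries, and some rest on few counts: a group with reads in a single sample always exceeds the limit. No excess over chance can therefore be read from the number.

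Among the antibody genes, Ighm was 4.24 CPM in pFUS_UC sample 1, where the others had 7.0 to 7.53. Ighg1 was 0.813 CPM in pFUS_UC sample 3 (others 0.110 to 0.173) and 0.123 CPM in UC sample 2 (others 0). Ighg2b was 0.334 CPM in AKI sample 4 (others 0 to 0.0481) and 0.0614 CPM in UC sample 2 (others 0). Ighg2c was 0.144 CPM in UC sample 4 and 0.0432 CPM in pFUS_UC sample 1, with the others at 0, and Iglc3 was 0.0881 CPM in UC sample 3, again with the others at 0. These IgG and lambda values rest on few counts. Variable segment reads numbered 3 in UC sample 2 (others 8 to 9) and 4 in pFUS_UC sample 2 (others 9 to 10).

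Among other B lineage genes, Mzb1 was 1.35 CPM in AKI sample 1 (others 0.167 to 0.334), Fkbp11 was 7.18 CPM in pFUS_UC sample 1 (others 9.09 to 9.42) and Cd180 was 0.866 CPM in UC sample 4 (others 0.125 to 0.184). Pax5 was 0.606 CPM in pFUS_UC sample 2 (others 0.0984 to 0.173) and 0.0 CPM in UC sample 1 (others 0.184 to 0.22). Fcgrt was 195 CPM in pFUS_UC sample 1 (others 266 to 274), and Cxcl12 was 167 CPM in UC sample 4 (others 62.8 to 67.7).

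UC sample 4, which had the most Igha, Ighm and Igkc of its group, also stood apart in Ccl21a at 2.89 CPM (others 0.623 to 0.798), in Ccl19 at 0.674 CPM (others 0.123 to 0.176) and in Cd8a at 11.0 CPM (others 0.396 to 0.997). Cd8a was 3.03 CPM in AKI sample 2 (others 0.278 to 0.586). Csf1r was 92.2 CPM in AKI sample 3 (others 52.7 to 55.5) and Nr1d1 was 182 CPM there (others 66.9 to 84.8). Lyve1 was 2.0 CPM in AKI sample 4 (others 0.962 to 1.05), and S100a9 was 0.81 CPM in UC sample 1 (others 0.0962 to 0.132). Plin1 was 0.184 CPM in UC sample 2 (others 0.810 to 0.925), and Upk3a, a urothelial gene, was 25.4 CPM in UC sample 3 (others 7.80 to 10.5). Lum was 1.77 CPM and Scara5 1.08 CPM in pFUS_UC sample 1 (others 2.37 to 2.44 and 1.92 to 1.98). Hba-a1, a haemoglobin gene of red cells, was 351 CPM in pFUS_UC sample 4 (others 1.75 to 2.08) and 28.0 CPM in UC sample 1 (others 0.793 to 1.72). Cyp11a1, an adrenal gene, was 0.0551 CPM in AKI sample 2, from 1 count (others 0).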

How the results depend on the processing

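Of 333 alternative values for the 6 tested genes, 317 kept their direction and call, or for Igha and Igkc moved by less than the spread between samples. Igha stayed lower in UC than in AKI (-4.74 to -3.57 on the log2 scale with single samples left out, -3.99 to -1.60 otherwise, the smallest with limma on log2(FPKM + 1)). Values that changed sign lay between -0.33 and 0.45 on the log2 scale. Jchain in pFUS_UC against AKI was 0.01 without AKI sample 1. Cd79a in pFUS_UC against UC was -0.02 with a replicate block and with limma on log2(FPKM + 0.1), -0.01 without UC sample 2, -0.33 without pFUS_UC sample 2 and -0.10 without UC samples 1 and 2, an alternative chosen after seeing the data because these samples had few antibody reads. Cd79b in pFUS_UC against UC was 0.02 with limma on log2(FPKM + 0.1) and 0.45 without UC sample 3. With single samples left out these 3 values ran from -0.84 to 0.01, -0.33 to 0.30 and -0.72 to 0.45. The cause was not tested.

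B lineage genes called in UC against AKI numbered 10, 6 to 10 with single samples left out and 6 without UC samples 1 and 2. In pFUS_UC against AKI they numbered 9, and 5 to 8 with single samples left out. All genes called in UC against AKI numbered 8210, and 5414 without UC samples 1 and 2, where fewer samples enter. Genes called in pFUS_UC against UC were 0, against 44 with DESeq2, 13 with no filter, 2 with a replicate block and 0 to 1 with single samples left out. Variable segments per library fell to 7.75, 0.75 and 0.50 in AKI, UC and pFUS_UC with a minimum of 3 counts. Same-numbered samples showed no strong shared deviation (r = -0.165 to 0.147 across genes). This cannot exclude a pairing, which the labels do not state. With the block 10 and 7 B lineage genes were called against AKI in UC and pFUS_UC.

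Depth limits the low genes: Ms4a1, the IgG and lambda genes and the variable segments did not pass the filter on low counts, and Igha in UC rests on 41 counts. A library batch cannot be told apart from the absence of cells.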
